A study of Mus musculus with 12 samples.

Results

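A set of 10 genes for subunits of voltage-gated calcium channels was described in RNA from mouse Purkinje cells: the pore genes Cacna1a, Cacna1b, Cacna1c, Cacna1e and Cacna1g, the beta genes Cacnb2 and Cacnb4, and the alpha2delta genes Cacna2d1, Cacna2d2 and Cacna2d3. They were chosen by name, and all 10 were found among the 43346 annotated genes of the deposited tables. The RNA came from 1 male B6CASTF1/J mouse, a hybrid of Castaneus and C57Bl6, aged 14 months, from which 13 Purkinje cells were excised in parasagittal tissue and homogenised together. The lysate was split into 12 Smart-seq libraries, each made from the total RNA (above 200 bases) of 1 cell-equivalent and from ERCC spike-ins, which are synthetic RNAs added in known amounts. The libraries carry the technical replicate numbers 1 to 6 and 8 to 13 and form 1 group with no treatment and no control. The spread between them, and every p-value below, is therefore that of splits of 1 pool and says nothing about animals or about single cells.

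A voltage-gated calcium channel is built around an alpha1 subunit, which forms the pore and sets the type of current. A beta subunit inside the cell and an alpha2delta subunit outside it bring channels that open at high voltage to the membrane and tune their gating, while T-type channels, which open near rest, form from the pore protein alone. In Purkinje cells most calcium current is of the P/Q type, from Cacna1a, and mutations of Cacna1a, Cacnb4 and Cacna2d2 underlie the ataxic mouse strains tottering, lethargic and ducky.

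Gene totals ran from 13694551 to 24108916 expected counts, and the gene counts per spike-in count from 5.86 to 19.9. A count of 0 allowed a level of up to 0.124 to 0.219 CPM (counts scaled to a common library total, without length), taking 3 counts as the limit of counting error. None of the 66 pairs of libraries agreed within the sampling noise of reads, so no library repeated the data of another. This checks only for repeated data, and the libraries remain splits of 1 pool. All 10 Purkinje markers had a mean of at least 1 TPM (a length-scaled share of transcripts) and at least 50 counts in every library, with a summed level of 16960 to 29894 TPM. Markers of other cells were also present, led by Bergmann glia and astrocytes with a summed 1493 to 4197 TPM.

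The sequences below show what separates the transcripts to which the counts of these genes were assigned, since the results turn on that assignment. The first set lies on chromosome 8 at Cacna1a (mm10, GENCODE M21, plus strand). For 4 of the short transcripts, each stretch runs from an exon of the full-length coding transcript, in lower case, into the bases that the transcript keeps from the next intron, in capitals. In each of them the capitals begin with GT, the pair of bases that opens nearly all introns. They are Cacna1a-206 (chr8:84518739-84518798), Cacna1a-203 (chr8:84580199-84580258), Cacna1a-207 (chr8:84612388-84612447) and Cacna1a-209 (chr8:84633739-84633798).
Cacna1a-206: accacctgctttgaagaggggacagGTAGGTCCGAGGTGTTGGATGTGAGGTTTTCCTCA
Cacna1a-203: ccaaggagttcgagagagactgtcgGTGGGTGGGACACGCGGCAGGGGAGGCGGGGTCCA
Cacna1a-207: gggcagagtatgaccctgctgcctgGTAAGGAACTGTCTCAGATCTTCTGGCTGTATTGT
Cacna1a-209: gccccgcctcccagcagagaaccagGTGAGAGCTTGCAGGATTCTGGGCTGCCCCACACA

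The second set gives the first 60 coding bases of the 3 transcripts that led the Cacnb4 counts, on the minus strand of chromosome 2. Capitals mark coding bases that are not coding in the other two. Cacnb4-202 began at chr2:52558269-52558313 (45 bases), Cacnb4-203 at chr2:52556202-52556207 (6 bases) and Cacnb4-206 at chr2:52676271-52676330 (60 bases), and the first coding exon that they share was chr2:52477692-52477811.
Cacnb4-202: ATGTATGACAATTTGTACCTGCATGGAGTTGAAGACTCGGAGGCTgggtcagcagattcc
Cacnb4-203: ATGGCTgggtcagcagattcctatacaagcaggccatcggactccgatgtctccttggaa
Cacnb4-206: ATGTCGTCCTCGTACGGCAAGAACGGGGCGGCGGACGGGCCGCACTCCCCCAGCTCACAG

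The third set shows the 21 coding bases, in capitals, by which Cacna1g-209 is longer than Cacna1g-210. They are the end of an exon on the minus strand (chr11:94425764-94425784), and the bases on either side are shared by both transcripts.
Cacna1g-209: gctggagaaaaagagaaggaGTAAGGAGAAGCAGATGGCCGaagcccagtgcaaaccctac
Cacna1g-210: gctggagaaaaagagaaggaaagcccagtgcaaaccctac

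The genes fell into 5 that were found in every library and 5 that were found in few. Cacna1a, Cacna1g, Cacnb2, Cacnb4 and Cacna2d2 had at least 50 expected counts in all 12 libraries, and the same 5 passed in all 12 at thresholds of 1 count, 5 counts and 1 TPM. The background was 3.72%, since 1613 of the 43346 genes had 50 counts in every library. Of the other members Cacna1e reached 50 counts in 5 libraries, Cacna2d1 in 4, Cacna1c in 2, and Cacna1b and Cacna2d3 in 1 each. The beta pair had the highest summed level, 110.9 ± 53.9 TPM (SD, n = 12), against 66.1 ± 40.4 TPM for the 5 pore genes and 22.8 ± 28.3 TPM for the 3 alpha2delta genes.

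**Figure D1:**
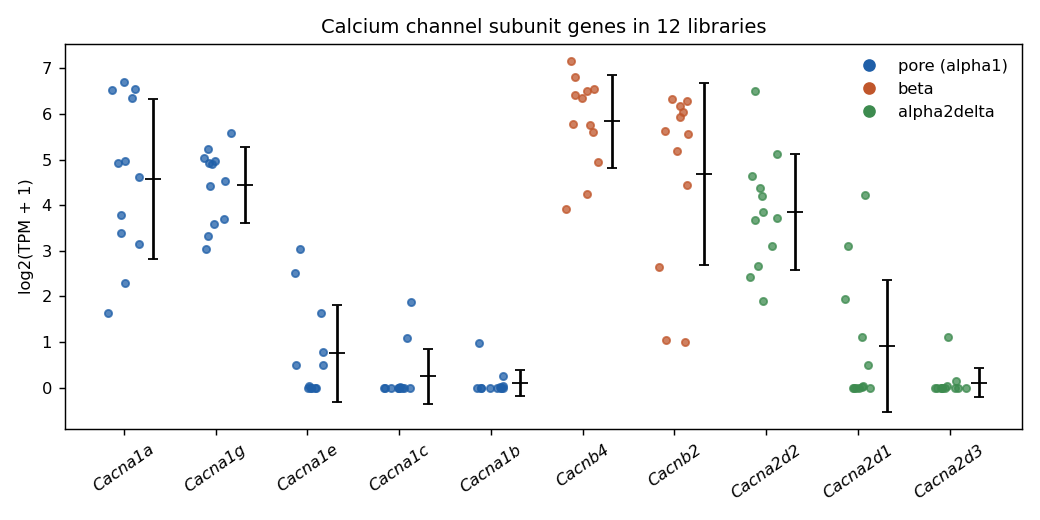
The points are log2(TPM + 1) of each of the 10 members in the 12 libraries, coloured by subunit class, and the bars show mean and SD. Cacna1a, Cacna1g, Cacnb4, Cacnb2 and Cacna2d2 were above 0 in every library, while the other 5 lay at or near 0 in most.

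Among the pore genes, Cacna1a (chr8:84388440-84640246, plus strand), which carries the P/Q-type current, ranged from 2.09 TPM in library 11 to 103.2 TPM in library 1, with a median of 26.4 TPM. Libraries 1, 3, 8 and 12 stood together at 80.2 to 103.2 TPM, and no other library exceeded 30.2 TPM. The mean was 40.5 ± 39.2 TPM (SD, n = 12), so the spread was nearly as large as the level.

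The counts of Cacna1a were spread over transcripts of very unequal length. The full-length coding transcript Cacna1a-201, of 7926 bases, held 48.1% of the pooled 17868 counts. Most of the rest went to Cacna1a-209 (22.8%), Cacna1a-207 (10.1%), Cacna1a-204 (7.82%), Cacna1a-203 (7.23%) and Cacna1a-206 (3.92%). These are annotated as retained introns, or as a processed transcript for Cacna1a-204, and have lengths of 597 to 1742 bases. Bases outside the exons of Cacna1a-201 made up 31.2% of Cacna1a-206, 40.0% of Cacna1a-203, 43.7% of Cacna1a-209, 54.6% of Cacna1a-207 and 62.4% of Cacna1a-204. The remainder of each is sequence that the full-length transcript holds too.

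**Figure D2:**
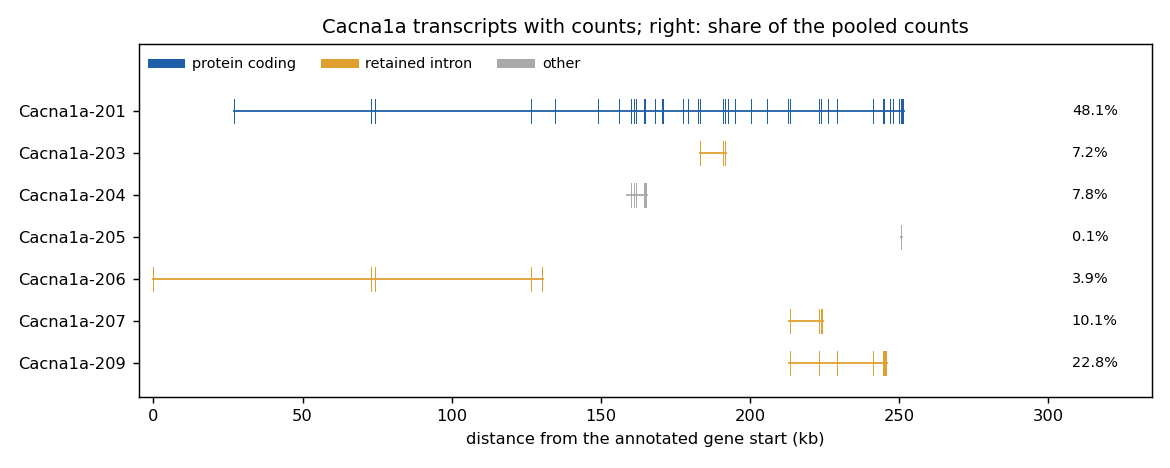
Each row is a Cacna1a transcript that received counts, drawn as exons (boxes) and introns (lines) by distance from the annotated gene start in kb. Colours give the annotated type, and the share of the counts pooled over 12 libraries stands at the right, led by 48.1% for Cacna1a-201 and 22.8% for Cacna1a-209.

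The lead among these transcripts changed from library to library. Cacna1a-201 held the most counts in 6 libraries (2, 6, 9, 10, 11 and 13), and in libraries 2, 10 and 11 it held all of them. Cacna1a-209 led in library 12 with 3215 of 3653 counts, a share of 88.0% (95% Wilson interval 86.9% to 89.0%), and in library 4. Cacna1a-207 led in library 3 with 1261 of 2209 counts and in library 5. Cacna1a-203 led in library 8 with 1059 of 1821 counts, and Cacna1a-204 in library 1 with 1195 of 3321. The 4 libraries of highest Cacna1a TPM were thus each led by a different short transcript.

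The length of the leading transcript carried over to the scaled level. The effective length, the number of start positions from which a fragment of the gene can come, ran from 818.7 bases in library 8 to 7827 bases in libraries 2, 10 and 11. That is a 9.56-fold range, and 2.24% of 1116 protein-coding genes with at least 50 counts in every library and more than a single transcript had a range as wide (median 1.46-fold). In library 8 the 1059 counts of Cacna1a-203 made up 88.5 TPM, whereas in library 2 all 1360 counts lay on Cacna1a-201 and made up 7.81 TPM. Restricted to protein-coding transcripts, Cacna1a ran from 1.74 to 8.26 TPM with a mean of 4.73 ± 2.45 TPM (SD, n = 12). The protein-coding level in libraries 1, 3, 8 and 12 was 8.26, 5.84, 4.05 and 2.23 TPM, which overlapped the other 8 libraries. Without length these 4 libraries were also the highest, at 197.6, 151.3, 82.9 and 154.2 CPM. Library 13 came next at 73.2 CPM, close below library 8, whereas by TPM it had 30.2 against 92.6 in library 8. The part of length scaling in setting these libraries apart was not tested.

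Cacna1g (chr11:94408391-94474198, minus strand), a T-type pore gene, ranged from 7.20 TPM in library 8 to 47.1 TPM in library 13, with a median of 25.6 TPM and a mean of 23.8 ± 12.4 TPM (SD, n = 12). Protein-coding transcripts held 99.0% of its counts, and its effective length varied 1.84-fold. Library 13, the highest, held 313 counts on Cacna1g-212, a processed transcript of 784 bases, which made up 23.5 TPM. On protein-coding transcripts alone that library had 23.6 TPM, and the highest was library 9 with 36.6 TPM.

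Cacna1g-210 led in 10 libraries and Cacna1g-209, with the 21 extra coding bases printed above, in libraries 9 and 12. In library 12 Cacna1g-209 held 5587 of 6037 counts (92.5%, 95% Wilson interval 91.9% to 93.2%), and in library 9 it held 3481 of 5095. Library 5 was divided, with 1445 counts on Cacna1g-209 and 1900 on Cacna1g-210. In the other 9 libraries the share of Cacna1g-210 was 84.3% or more. The transcripts share 7981 bases, so their split rests on fragments over those 21 bases and their join. The interval is taken over all counts of the gene and leaves out the error of that assignment.

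The order of Cacna1a and Cacna1g depended on how length was treated. It was known when the genes were chosen, so it is described without a test. By TPM, Cacna1a was higher in 5 of 12 libraries (1, 3, 4, 8 and 12), and the mean log2(TPM + 1) difference, Cacna1a minus Cacna1g, was 0.13 ± 1.77 (SD). With the length of the longest annotated transcript used in every library, Cacna1a had 10.1 ± 7.22 and Cacna1g 21.2 ± 9.76 CPM per kb, and Cacna1a was higher in 2 libraries (1 and 8). On protein-coding transcripts alone, Cacna1a was lower in all 12, at 4.73 ± 2.45 against 21.4 ± 10.2 TPM, with a mean log2(TPM + 1) difference of -1.93 ± 0.83. The libraries in which Cacna1a led by TPM were all among the 6 whose counts were led by its short transcripts. Without library 1, 3 or 8 the TPM difference was -0.06, -0.00094 or -0.17, so its sign rested on each of these.

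**Figure D3:**
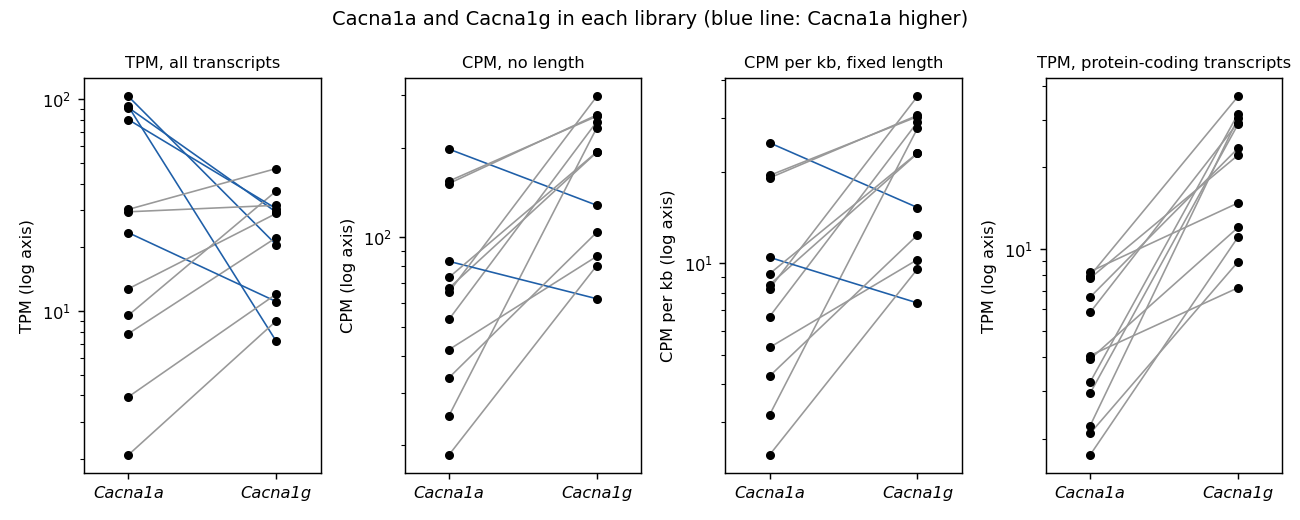
Each line joins Cacna1a and Cacna1g in the same library on 4 scales (log axes): TPM, CPM without length, CPM per kb of a fixed length, and TPM of protein-coding transcripts. Blue lines, where Cacna1a was higher, number 5, 2, 2 and 0 of 12.

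The other pore genes appeared in few libraries. Cacna1e (chr1:154390731-154884501, minus strand), which carries the R-type current, had 1701 counts in library 4 and 1226 in library 9, 84 to 98 in libraries 1, 5 and 13, and at most 28 in the other 7. The counts of libraries 1, 4, 5 and 9 lay almost wholly on the coding Cacna1e-203, but in library 13 all except 1 of the 93 counts lay on Cacna1e-204, a retained intron. Its mean was 1.302 ± 2.32 TPM (SD, n = 12), and 0.764 TPM without library 4.

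Cacna1c (chr6:118587240-119196418, minus strand), an L-type pore gene, had 611 counts in library 6 and 289 in library 13, with at most 1 count in the other 10, and a mean of 0.319 ± 0.812 TPM (SD, n = 12), which was 0.105 TPM without library 6. Cacna1b (chr2:24603887-24763152, minus strand), the N-type pore gene, had 167 counts in library 1, at most 4 elsewhere and 0 in 8 libraries. The counts of both genes lay on coding transcripts, Cacna1c-207 and Cacna1b-202, in the libraries where they reached 50.

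Of the beta genes, Cacnb4 (chr2:52428320-52676831, minus strand) was the member with the highest mean level, 68.2 ± 38.6 TPM (SD, n = 12). It ranged from 14.2 TPM in library 2 to 141.3 TPM in library 12, with a median of 67.5 TPM. By mean TPM, 3.85% of all annotated genes were as high or higher. Protein-coding transcripts held 99.6% of its 99978 counts. In library 12 the 247 counts of Cacnb4-205, a processed transcript of 208 bases, made up 90.3 TPM while the 9869 counts of Cacnb4-206 made up 49.9 TPM. Library 5 was highest on protein-coding transcripts, with 93.1 TPM.

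The transcript to which most Cacnb4 counts were assigned, and with it the annotated coding start, differed between libraries. Cacnb4-202 led in 10 libraries and held at least 95.5% of the counts in 8 of them. Cacnb4-203 led in library 9 with 11131 of 11249 counts (99.0%, 95% Wilson interval 98.7% to 99.1%), and Cacnb4-206 in library 12 with 9869 of 10345 (95.4%, interval 94.98% to 95.8%). Libraries 6 and 8 were mixed. Library 6 had 5420 counts on Cacnb4-202 and 3910 on Cacnb4-201, which opens with the same coding base as Cacnb4-206, and library 8 had 2240 on Cacnb4-206. Cacnb4-203 holds every base of Cacnb4-202 and 167 more, and Cacnb4-206 has 421 bases that Cacnb4-202 lacks. The differences thus lie in a small part of transcripts of about 8 kb. Both intervals are taken over all counts of the gene and leave out the error of assignment.

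An antisense gene, A430018G15Rik, named here because its counts were seen to be high, shares 1433 exon bases with Cacnb4, of which 258 are coding. It had 33857 counts over the 12 libraries, from 0 in library 11 to 16403 in library 12, the library of highest Cacnb4 TPM. Strand of the libraries is not given in the sources used here, so reads of these genes in the shared bases cannot be told apart.

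Cacnb2 (chr2:14603088-14987908, plus strand) ranged from 1.00 TPM in library 8 to 80.1 TPM in library 2, with a median of 47.5 and a mean of 42.7 ± 29.6 TPM (SD, n = 12). Libraries 4, 8 and 11 were low, at 1.00 to 5.26 TPM, and the other 9 were at 20.7 TPM or more. Its counts ran from 75 in library 8 to 7479 in library 10.

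Cacnb2 had 7 different leading transcripts by count, against 5 for Cacna1a, and by TPM both had 7. Cacnb2-203, the coding transcript of 3945 bases, led in 6 libraries and held every count in libraries 2 and 9. In library 10, 7461 of 7479 counts lay on Cacnb2-210, a processed transcript. Retained-intron transcripts led in libraries 6, 8, 11 and 13, and the coding Cacnb2-202 led in library 3. Protein-coding transcripts held 53.8% of the pooled counts, against a median of 98.4% over the 1116 genes compared. On these alone Cacnb2 ranged from 0.00 TPM in library 11 to 80.1 TPM in library 2, with a mean of 16.6 ± 23.3 TPM, and 5 libraries were at 1.01 TPM or less besides library 11.

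**Figure D4:**
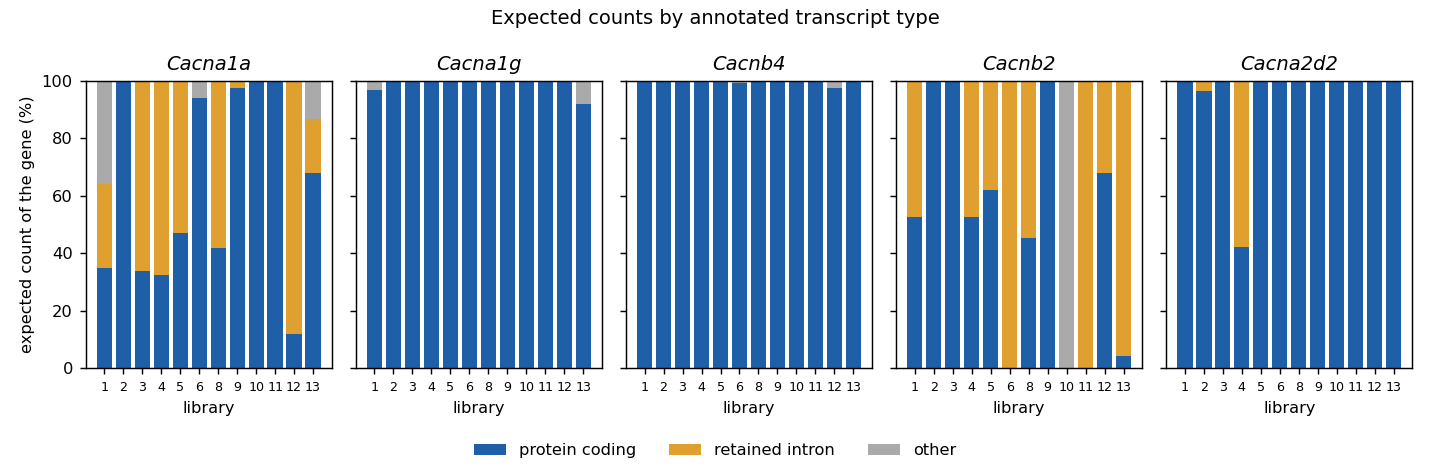
Stacked bars give, for the 5 members found in every library, the share of the gene's expected counts in each library that was assigned to protein-coding, retained-intron and other transcripts (percent). Cacna1g, Cacnb4 and Cacna2d2 were nearly all coding apart from library 4 of Cacna2d2, while Cacna1a and Cacnb2 changed from library to library.

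Of the alpha2delta genes, Cacna2d2 (chr9:107399612-107529343, plus strand), the gene of the ducky strain, ranged from 2.73 TPM in library 10 to 90.4 TPM in library 4, with a median of 12.8 and a mean of 20.2 ± 23.8 TPM (SD, n = 12). The next library below library 4 had 33.8 TPM. In library 4, 679 of the 1188 counts (57.2%, 95% Wilson interval 54.3% to 59.9%) lay on Cacna2d2-206, a retained-intron transcript of 604 bases, and made up 84.7 TPM. On protein-coding transcripts library 4 had 5.74 TPM, and the mean over libraries was 12.6 ± 8.70 TPM. Cacna2d2-208 led in 9 libraries, Cacna2d2-201 in library 2 and Cacna2d2-204 in library 3.

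Cacna2d1 (chr5:15934691-16374511, plus strand) had 2048 counts in library 4, 1091 in library 13, 370 in library 1 and 149 in library 9, and at most 41 in the other 8. All but a few of these lay on the coding Cacna2d1-202, and the mean was 2.48 ± 5.27 TPM (SD, n = 12), or 1.10 TPM without library 4. Cacna2d3 (chr14:28904943-29721864, minus strand) had 82 counts in library 13, at most 9 elsewhere and 0 in 9 libraries.

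Members were compared in pairs within libraries by an exact two-sided sign-flip permutation test of log2(TPM + 1), adjusted by the Benjamini-Hochberg method over the 44 pairs tested. Differences passed in 28 pairs. The members were chosen with earlier results of these data known, so these p-values do not come from a blind choice of genes. Each of the 5 members found in every library was higher than each of the 5 sparse ones, in 11 or 12 of 12 libraries, by 2.94 to 5.73 on the log2 scale. The smallest p that 12 libraries allow, 0.000488 (adjusted 0.000977), was reached in 22 of these 25 pairs. The split into abundant and sparse members came from counts in these same libraries. The direction of the 25 differences was thus largely fixed in advance, and their p-values are no separate support for the split. On protein-coding transcripts Cacnb2 and Cacna2d1, among the 25, no longer passed (1.82, exact permutation adjusted p = 0.0758). Among the sparse members 1 pair passed, Cacna1e above Cacna2d3 by 0.64 ± 1.04 in 7 of 12 (exact permutation adjusted p = 0.0368). It lost the call without any of the libraries 1, 4, 5, 6, 9 and 13 (exact permutation adjusted p from 0.0645 to 0.0737) and at a pseudocount of 0.1 (0.0533), by CPM (0.051), at a fixed length (0.272) and on protein-coding transcripts (0.362). Within classes, Cacna2d2 exceeded Cacna2d1 by 2.94 ± 1.37 (SD, n = 12, exact permutation adjusted p = 0.000977). Cacna1g exceeded Cacna1e by 3.69 ± 1.21 (n = 12, exact permutation adjusted p = 0.000977). Both belong to the 25 pairs of an abundant and a sparse member.

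The order among the 5 abundant members was mostly not resolved. Cacnb4 was higher than Cacna1g by 1.40 ± 1.08 (SD) in 10 of 12 libraries (exact permutation adjusted p = 0.00496) and higher than Cacna2d2 by 1.99 ± 1.78 in 9 of 12 (exact permutation adjusted p = 0.00716). Cacnb4 and Cacna1a differed by 1.27 ± 1.78, which did not pass with all 12 libraries (exact permutation adjusted p = 0.0548) but did without library 1, 3 or 8 (exact permutation adjusted p = 0.0491, 0.00921 and 0.04). The difference of Cacnb4 and Cacnb2, 1.15 ± 2.07, did not pass either (exact permutation adjusted p = 0.112), though it did without library 2 (1.47, exact permutation adjusted p = 0.0322). Neighbours further down the order, Cacnb2 and Cacna1a, and Cacna1g and Cacna2d2, did not pass, with mean differences of 0.12 ± 2.48 and 0.59 ± 1.37.

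Other length scalings separated more of these pairs. Cacnb4 and Cacnb2 passed at a fixed length (1.98, exact permutation adjusted p = 0.0136) and on protein-coding transcripts (2.92, exact permutation adjusted p = 0.0103), with Cacnb4 higher in both. Cacna1g and Cacna2d2 passed too, with Cacna1g higher by 0.81 (exact permutation adjusted p = 0.00614) and 0.82 (exact permutation adjusted p = 0.0043). Cacnb4 and Cacna1a differed by 2.44 at a fixed length (exact permutation adjusted p = 0.00187) and by 3.26 on protein-coding transcripts (exact permutation adjusted p = 0.00134). Cacna1a minus Cacna2d2 was 0.72 ± 1.88 by TPM (exact permutation adjusted p = 0.254) and turned to -1.11 on protein-coding transcripts (exact permutation adjusted p = 0.00215), with Cacna2d2 higher. Cacnb2 minus Cacna1g likewise went from 0.25 ± 1.52 (exact permutation adjusted p = 0.624) to -1.59 (exact permutation adjusted p = 0.0256). Without library 4 Cacna1g and Cacna2d2 passed by TPM as well (0.91, exact permutation adjusted p = 0.0123). By mean level Cacna1a had rank 3 by TPM and rank 5 on either of these scales, while Cacnb4 had rank 1 on each.

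The sparse members were found in the libraries with the most gene counts per spike-in count. Cacna2d1 reached 50 counts in the 4 libraries of highest ratio (13, 1, 4 and 9, at 9.83 to 19.9 gene counts per spike-in count), and Cacna1e in these and in the next, library 5 at 9.30. The libraries in which Cacna1c, Cacna1b and Cacna2d3 reached 50 counts were also among the 6 of highest ratio. In the other 6 libraries, at 5.86 to 6.96, none of the 5 reached 50 counts. The number of members at 50 counts fell from 9 in library 13, through 8 in library 1 and 7 in libraries 4 and 9, to 5 in those 6 libraries.

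The same held for genes at large. The number of genes with 50 counts ran from 5407 in library 11 to 8645 in library 13. Over the 12 libraries the Spearman correlation with the ratio was 0.93 for the number of members and 0.93 for the number of all genes, where both counts and ratio come from the same libraries. In a fit over all genes with the log2 ratio as covariate, edgeR called 0 of 10 members, against a background of 4.3% (598 of 13899 genes), and 2 members, Cacna1b and Cacna2d1, had an unadjusted p under 0.05 (0.0355 and 0.0147), as did 15.8% of all genes. On simulated counts this edgeR test called 13% of 200 genes given a log2 slope of 3 either way. These genes all had a higher mean count than any sparse member, and the simulated dispersion was capped, so sparse members were not covered. The 0 of 10 therefore says little about whether members follow the ratio. DESeq2 called Cacna1e (slope 8.70 log2 units per doubling of the ratio, adjusted p = 1.56e-06) and Cacna2d1 (slope 5.85, adjusted p = 0.00247), against a background of 16.7%. Sparse members entered these fits through few libraries of high ratio. Cacna1b had 167 of its 174 counts in library 1, and Cacna2d3 82 of 92 in library 13. Their slopes restate where they were found and are no separate support for a relation. The slopes of the 5 abundant members lay between -0.69 and 0.54 in edgeR.

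**Figure D5:**
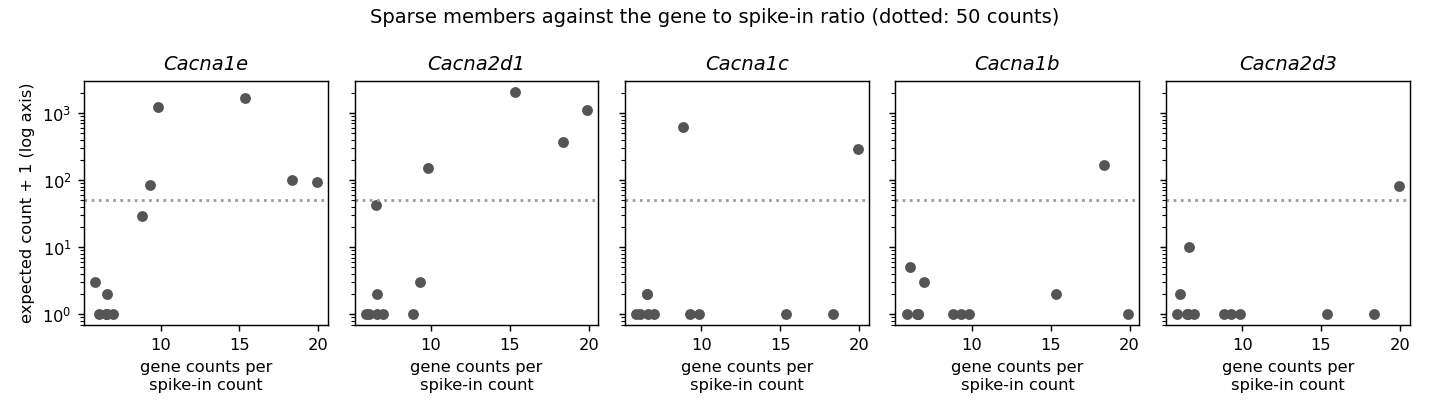
Points are the 12 libraries, with gene counts per spike-in count on the x axis and the expected count plus 1 of each sparse member on a log y axis. No library below 8 gene counts per spike-in count reached 50 counts (dotted line) for any of the 5.

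Markers of other cell types were not at the same level in the 6 libraries that held sparse members. The granule cell markers, all 10 with a mean of at least 1 TPM, summed to 325 to 834 TPM in these libraries and were highest in libraries 9 and 4, where Cacna1e was highest, with library 10, which held no sparse member at 50 counts, next at 628.2 TPM. The 10 Bergmann glia and astrocyte markers were highest in libraries 13 (4197 TPM) and 4 (3201 TPM), where Cacna2d1 was highest, but lowest of all in library 1 (1493 TPM). The 8 interneuron markers, 5 of them at a mean of 1 TPM or more and Sst with no count, were highest in library 9 (105.9 TPM) and 4.72 TPM in library 4. The 8 vascular markers, 4 of them at a mean of 1 TPM or more and Cldn5, Acta2 and Kdr with no count, summed to 290.1 TPM in library 13, 45.1 TPM in library 9 and at most 0.64 TPM in libraries 1, 4, 5 and 6. The 8 microglial markers, 5 of them at a mean of 1 TPM or more and C1qc and Fcer1g with no count, summed to 370.2 TPM in library 9, 56.0 TPM in library 13 and at most 4.09 TPM in those 4. The highest microglial sum was 445.8 TPM in library 8, and libraries 2 and 3 had 192.3 and 175.2 TPM, all without a sparse member at 50 counts. The 8 oligodendrocyte markers, 6 of them at a mean of 1 TPM or more, summed to 101.1 to 401.9 TPM over the 12 libraries and were highest in library 9. The Purkinje sum was lowest in libraries 13 and 4. The part of these cells in the counts of the sparse members was not tested.

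The spread of the members was set against that of genes of like abundance. In edgeR's quasi-likelihood fit, 0 of 10 members were called for variation above the abundance trend, against a background of 0.0144% (2 of 13899 genes), and no member had an unadjusted p under 0.05. Over all genes 0.684% had an unadjusted p of at most 0.05 in this F test. On simulated counts it called 41.5% of 200 genes whose dispersion was multiplied by 8. These genes too had a higher mean count than any sparse member, so the simulation did not cover the sparse members. The lack of calls therefore does not show that members vary as other genes do. The F value ran from 0.142 for Cacna2d2 to 1.54 for Cacna2d3 and was above 1 for 6 members. It is the ratio of a member's quasi-dispersion to the value fitted for genes of like abundance. The trend of the count dispersion, which the fit already takes in, was wide. Its coefficient of variation was 1.02 at the abundance of Cacnb4 and 4.20 at that of Cacna1b. Levels of the 5 abundant members were weakly related over the 12 libraries, with Spearman correlations from -0.17 (Cacnb4 and Cacna2d2) to 0.46 (Cacna1g and Cacnb4).

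The genes most like a member by Spearman correlation of log2(TPM + 1) over the 12 libraries, out of 1591 genes compared, were Tmem50b (0.82), Dync1li1 (0.82) and Smarca2 (0.81) for Cacna1a. For Cacna1g they were Tmsb10 (0.84), Ndufb2 (0.79) and Tprgl (0.78), and for Cacnb4 Elmo1 (0.84), Fam107b (0.83) and Osbpl6 (0.81). These are the highest of many values over few libraries that share a pool, and no test was made of them.

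Of 8 further channel subunit genes, only Cacnb1, a beta gene, had a mean of at least 1 TPM. Its mean was 7.23 ± 16.2 TPM (SD, n = 12), with 50 counts in 3 libraries and a maximum of 43.3 TPM in library 13. Cacna1d, Cacna1h, Cacna1i, Cacnb3 and Cacna2d4 were below 1 TPM, and Cacna1f and Cacna1s had no count. None of the 8 had 50 counts in every library.

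The gamma family holds genes first named as calcium channel subunits, most of which are now known as partners of AMPA-type glutamate receptors. Of its 8 genes, Cacng5 (25.01 ± 24.7 TPM, SD, n = 12) and Cacng2 (17.8 ± 14.7 TPM), the stargazin gene, had 50 counts in all 12 libraries. Cacng4 (15.5 ± 16.4 TPM) had them in 7 and Cacng7 (3.22 ± 8.25 TPM) in 5. Cacng3 and Cacng8 were below 1 TPM, and Cacng1 and Cacng6 had no count.

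Among genes whose products bind or are gated through calcium channels, Calm2 (6804 ± 1539 TPM) and Calm3 (151.4 ± 88.3 TPM), which encode calmodulin, had 50 counts in every library. So did Kcnma1 (100.5 ± 55.9 TPM), the large-conductance calcium-activated potassium channel. Kcnn2, a small-conductance channel of the same kind, had 43.1 ± 46.8 TPM and 50 counts in 11 libraries. The release-site genes Rims2 (18.9 ± 22.9 TPM) and Rims1 (15.8 ± 22.8 TPM) had 50 counts in 7 libraries each, Cbarp (14.0 ± 17.5 TPM), whose product binds beta subunits, in 9, and Ncs1 (5.13 ± 7.20 TPM) in 6. Stac had a mean of 19.9 ± 44.6 TPM, of which 0.06 TPM lay on protein-coding transcripts. Cabp1 and Rrad were below 1 TPM, and Rimbp2, Stac2, Rem2 and Gem had no count.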

How the data were processed

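The authors deposited gene and transcript tables per library with expected counts, TPM and FPKM, per the file headers. An expected count is an estimated read number in which reads shared between transcripts are split. Per the text deposited with the samples, reads were quantified on mm10 with GENCODE M4. Which aligner, quantification program and strand setting were used is not given in the sources used here. The TPM and FPKM deposited by the authors are scaled by the effective length of each gene in each library. GENCODE M21, built on that assembly, supplied names, types, coordinates and sequences. It matched 42462 of 43346 gene identifiers and all 104 listed symbols, and 100 of 104 member transcripts had the deposited length, Cacna2d1 giving the 4 exceptions.

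Pairs were tested on log2(TPM + 1) by sign flips over 4096 patterns at an adjusted p of 0.05. For edgeR 4.0.16 (R 4.3.3) expected counts were rounded, TMM factors were used, and 13899 genes, those averaging at least 5 counts, were tested by glmQLFit, with an upper-tail F test for variation. DESeq2 1.42.0 was an alternative, and the scripts were tested on simulated data. Of the members, 10 passed this filter. All members are named, genes of the other subunit, gamma and partner lists with a mean of at least 1 TPM are given with values, marker lists as sums with the markers that had no count, and genes of like pattern needed a mean of at least 10 TPM and 50 counts in every library. Members and lists were chosen with earlier results of these data known. PCR reads carry no molecular identifiers, so intervals and count limits cover counting error only. Transcript counts are estimates, and their intervals leave out the error of assignment. Alternatives were other length scalings, pseudocounts, filters and leaving out each library. A gene of the partner list and a sequence are not reported here.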

Additional observations from a re-analysis of the deposited data

How the results depend on the processing

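The count of 28 differing pairs became 27 at a pseudocount of 0.1, 28 with FPKM, 31 without length (CPM), 30 at a fixed length, 31 on protein-coding transcripts, and 27 to 30 with each library left out. Restricted to the members with 50 counts in 6 or more libraries it was 2, since only 9 pairs were then tested. The difference of Cacna1a minus Cacna1g reversed from 0.13 to -1.29 by CPM, -1.11 at a fixed length and -1.93 on protein-coding transcripts, and ran from -0.17 to 0.31 with each library left out. Differences that did not pass also reversed: Cacnb2 minus Cacna1a was -0.25 by CPM and -0.22 to 0.63 with a library left out, Cacna2d1 minus Cacna1e -0.032 by CPM, and Cacna2d3 minus Cacna1b 0.014 at a fixed length. With a library left out Cacna1c minus Cacna2d3 ran from -0.016 to 0.17, Cacna1c minus Cacna1b from -0.016 to 0.24, and Cacna2d3 minus Cacna1b from -0.10 to 0.089. By CPM, fixed length and protein-coding transcripts Cacnb2 minus Cacna1g was -1.54, -0.65 and -1.59. Cacnb2 minus Cacna2d2 was -0.14 by CPM and -0.77 on protein-coding transcripts, and Cacna1a minus Cacna2d2 -0.30 at a fixed length and -1.11 on protein-coding transcripts. The difference of Cacnb4 and Cacnb2 passed by CPM (2.89) and without library 2 (1.47), and that of Cacna1g and Cacna2d2 by CPM (1.40) and without library 4 (0.91). Of the 5 members found in every library, 2 had a coding lead in all libraries by count and 0 by TPM. No such share was taken over all genes, so these counts do not show a trait of the members. The DESeq2 Wald test called 2 members for the spike-in ratio against 0 by edgeR, and the cause was not tested. The other edgeR counts stayed at 0 under each alternative. Means of the sparse members rested on few libraries: without library 4 that of Cacna2d1 was 1.10 TPM and that of Cacna1e 0.764 TPM, without library 6 that of Cacna1c 0.105 TPM, without library 1 that of Cacna1b 0.021 TPM, and without library 13 that of Cacna2d3 0.011 TPM. No pairing between groups of libraries was possible because a replicate block needs more than 1 group. The sign-flip tests were paired within libraries, between genes. A count of 0 allows up to 0.219 CPM, and the deepest libraries (10, 12 and 8) had no sparse member at 50 counts.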
